A study of Homo sapiens with 6 samples.

Results

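Kinesins are motor proteins that use ATP to walk along microtubules or to take their ends apart. The human genes carry the symbols KIF and KIFC, and taking every symbol made of KIF, a number and at most the letter A, B or C, or of KIFC with 1, 2 or 3, gave 42 genes of the 26372 in the table. They were divided by their known work in the cell into 14 mitotic kinesins, which build the spindle and divide the cell, 17 transport kinesins, which carry vesicles, organelles and RNA, many of them along axons, and 11 others, among them motors of cilia. The mitotic motors are made in dividing cells and are scarce in mature neurons. SH-SY5Y, the line measured here, comes from a human neuroblastoma, divides in culture and has neuronal traits. In neurons kinesin-1, a pair of KIF5 heavy chains usually bound to light chains (KLC), moves mitochondria and vesicles away from the cell body. Inherited mutations of KIF5A cause amyotrophic lateral sclerosis (ALS), the disease in which the RNA-binding protein TDP-43 is lost from the nucleus.

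The libraries were 3 of SH-SY5Y cells with a lentiviral short hairpin RNA (shRNA) against TDP-43 (titles shT2) and 3 of SH-SY5Y cells with a control shRNA (titles shNC3). Per the labels' protocols the shRNA stood behind the U6 promoter of a pLVX vector, and stable knockdown cells were selected and then kept in puromycin. Both groups were therefore lentivirally infected cells, compared without an uninfected group. The labels give 1 hairpin name per group and name no clone or pool. They leave unsaid whether a group's 3 libraries are separate cultures, and the p-values then reflect no more than library spread, possibly technical. Values are FPKM, fragment counts divided by transcript length and library size, which allow genes to be compared per length.

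TARDBP, which encodes TDP-43, measured 21.9, 20.7 and 20.98 FPKM with the TDP-43 hairpin, and 50.3, 50.3 and 47.7 FPKM with the control hairpin. The targeted gene was lower in every knockdown library. The read number behind an FPKM is unknown, and the steps between low values put the libraries at 52.6% (knockdown library 2) to 100% (control library 1) of the deepest. The 52.6% is the least certain, as it rests on 98 of 1363 low values compared, where the other libraries compared had 253 to 444. In this comparison 66.3% of 13434 tested genes were called, 35.9% lower and 30.5% higher in the knockdown, where called means an adjusted p under 0.05 by limma on log2(FPKM + 1). The groups did not overlap for 70.8% of the tested genes, and did not for 27 of the 35 tested kinesins. The counts of kinesins below are to be read against those shares. Rescaling the columns to equal sums moved the median log2 fold change of all tested genes from -0.02 to -0.82. Quantile normalization moved it to 0.09, and both turned the direction of some kinesins. Values given below for equal column sums are to be read beside the -0.82. Of all calls 45.9% were higher on the deposited scale, 4.27% with equal column sums and 58.9% with quantile normalization. Among 10 mesenchymal markers 9 were called lower, and their summed level was 372 to 376 FPKM in the knockdown libraries and 2062 to 2107 FPKM in the controls. ANXA1 was listed at 0 in every knockdown library and PRRX1 at 0 in 1 of them. Of 10 noradrenergic neuroblastoma markers, 7 were called higher and 2 lower, with sums of 1103 to 1204 FPKM in the knockdown and 704 to 712 FPKM in the controls, while TH, the enzyme that defines catecholamine cells, was listed at 0 in all 6 libraries. Of 8 Schwann and glial markers 3 reached 1 FPKM on average, the list summed to 36.1 to 37.2 FPKM in the knockdown and 39.2 to 42.1 FPKM in the controls, and OLIG2 was listed at 0 throughout. These markers moved with the groups, and their part in the kinesin results was not tested.

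Promoters of mitotic genes are known for a pair of short elements. One is the cell cycle homology region (CHR), the site at which the MuvB core of the DREAM complex sits, and the other is the CCAAT box, bound by NF-Y. The windows below run from 250 bases before to 50 bases after the RefSeq transcript start on GRCh38.p14 and are shown 5′ to 3′ on the gene's strand, with forms of the CHR (TTTGAA or TTCGAA or TTTAAA) and the CCAAT box in capitals on either strand. An opposite-strand TTTGAA reads as TTCAAA in the printed line, and an opposite-strand CCAAT box as ATTGG. The first lines are the mitotic kinesins with the deepest falls, followed by KIF15, a mitotic kinesin that was not called, and by a transport kinesin that fell (KIF5B) and one that rose (KIF21A).
KIF23 chr15:69414099-69414398 plus strand: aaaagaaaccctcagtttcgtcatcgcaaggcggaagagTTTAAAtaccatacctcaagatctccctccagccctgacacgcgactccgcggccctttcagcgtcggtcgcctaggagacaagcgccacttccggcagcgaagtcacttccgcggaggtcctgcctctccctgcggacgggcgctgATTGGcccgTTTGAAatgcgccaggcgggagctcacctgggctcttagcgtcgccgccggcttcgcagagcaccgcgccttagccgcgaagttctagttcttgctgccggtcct
KIF14 chr1:200620702-200621001 minus strand: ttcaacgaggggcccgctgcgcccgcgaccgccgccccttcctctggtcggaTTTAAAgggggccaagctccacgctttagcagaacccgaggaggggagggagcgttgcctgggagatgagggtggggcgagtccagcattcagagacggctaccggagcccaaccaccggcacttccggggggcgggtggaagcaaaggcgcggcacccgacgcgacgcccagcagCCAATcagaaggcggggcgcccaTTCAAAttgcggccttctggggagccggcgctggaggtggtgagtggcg
KIF18A chr11:28108107-28108406 minus strand: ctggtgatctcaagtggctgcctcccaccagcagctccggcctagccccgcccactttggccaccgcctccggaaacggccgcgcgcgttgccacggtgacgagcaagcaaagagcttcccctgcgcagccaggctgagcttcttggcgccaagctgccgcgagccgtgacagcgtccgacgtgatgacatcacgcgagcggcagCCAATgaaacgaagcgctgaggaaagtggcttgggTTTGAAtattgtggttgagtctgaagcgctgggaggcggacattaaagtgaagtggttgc
KIF15 chr3:44761544-44761843 plus strand: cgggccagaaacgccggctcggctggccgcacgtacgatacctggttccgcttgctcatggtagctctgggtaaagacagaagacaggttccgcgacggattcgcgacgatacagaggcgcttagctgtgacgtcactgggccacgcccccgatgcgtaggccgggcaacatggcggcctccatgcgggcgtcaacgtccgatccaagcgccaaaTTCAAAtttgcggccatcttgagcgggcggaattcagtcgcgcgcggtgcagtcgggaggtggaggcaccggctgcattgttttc
KIF5B chr10:32056376-32056675 minus strand: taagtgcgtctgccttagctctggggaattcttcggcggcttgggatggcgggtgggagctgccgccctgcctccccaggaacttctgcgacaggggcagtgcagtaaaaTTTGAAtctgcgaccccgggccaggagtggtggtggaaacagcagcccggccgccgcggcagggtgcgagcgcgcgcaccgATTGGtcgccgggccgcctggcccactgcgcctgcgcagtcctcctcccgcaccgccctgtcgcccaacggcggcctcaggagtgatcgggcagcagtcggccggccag
KIF21A chr12:39443071-39443370 minus strand: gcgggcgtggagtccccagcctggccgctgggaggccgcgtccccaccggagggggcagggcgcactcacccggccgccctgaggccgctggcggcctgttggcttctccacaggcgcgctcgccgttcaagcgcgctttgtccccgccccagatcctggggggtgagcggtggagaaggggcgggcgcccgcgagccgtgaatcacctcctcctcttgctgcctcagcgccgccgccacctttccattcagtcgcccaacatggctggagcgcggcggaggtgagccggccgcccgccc

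Most mitotic kinesins fell in the knockdown. Of 14, 12 passed the filter of a mean of 1 FPKM, and 10 of those were called lower, 0 higher and 2 in neither direction, where 35.9% of all tested genes were called lower and 30.5% higher. In bulk RNA fewer cells in mitosis and less RNA per mitotic cell cannot be told apart. The tested members had a median log2 fold change of -0.48, against -0.02 over all tested genes. On the log2(FPKM + 1) scale KIF23 alone was called lower by 2-fold or more, where 7.95% of tested genes were, while by mean FPKM KIF14 and KIF18A were also under 0.5 times the control (0.497 and 0.489). All 14 together summed to 161, 158 and 160 FPKM in the knockdown libraries and to 234, 233 and 232 FPKM in the controls. KIF2B, a kinesin of testis and spindle, was listed at 0 in 5 of 6 libraries, and KIF4B, a nearly identical intronless copy of KIF4A, at 0 in 3 of 6. Both stayed far under the filter, with at most 0.0303 FPKM in any library.

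KIF23 (chromosome 15, 69414246 to 69448427, plus strand, GRCh38), the motor of the centralspindlin complex that organises the cleavage furrow, stood at 13.3, 13.02 and 13.2 FPKM in the knockdown and at 27.6, 29.5 and 28.3 FPKM in the control. The groups lay far apart, at 0.462 times the control level (log2 fold change -1.06, standard error 0.047, limma adjusted p = 1.74e-07). KIF14 (chromosome 1, 200551497 to 200620734, minus strand), which works at the midbody, stood at 8.88, 7.98 and 8.93 FPKM against 17.5, 18.02 and 16.3 FPKM. KIF20B (chromosome 10, 89701610 to 89774939, plus strand), another motor needed to complete cytokinesis, stood at 8.88, 8.27 and 9.06 FPKM against 16.4, 16.8 and 15.5 FPKM. Neither gene had a knockdown library near any control library, and the log2 fold changes were -0.93 (standard error 0.064) and -0.82 (standard error 0.059). KIF20A, the kinesin-6 that brings the chromosomal passenger complex to the central spindle, had a smaller fall, from 18.6 ± 0.614 to 16.2 ± 0.452 FPKM (SD, n = 3 each), a log2 fold change of -0.19 that was no longer called with quantile normalization (-0.07). KIF20A and KIF23 changed order. KIF20A stood at 1.18, 1.27 and 1.247 times KIF23 in the knockdown libraries and at 0.700, 0.614 and 0.654 times KIF23 in the controls, a comparison that needs no scaling between libraries and was picked after its values were seen.

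Among the motors of the spindle and chromosomes, KIF18A (chromosome 11, 28020620 to 28108308, minus strand), which damps the swinging of chromosomes at the metaphase plate, stood at 6.25, 5.84 and 7.17 FPKM in the knockdown and at 13.7, 13.3 and 12.3 FPKM in the control. The knockdown held 0.489 times the control level (log2 fold change -0.93, standard error 0.079). Its relative KIF18B, which trims astral microtubules, stood at 9.89 ± 0.844 against 13.7 ± 0.742 FPKM. KIF4A (chromosome X, 70290090 to 70420832, plus strand), a chromokinesin that sets the length of the central spindle with PRC1, stood at 13.4, 13.9 and 14.4 FPKM against 20.7, 22.3 and 21.2 FPKM. KIFC1 (chromosome 6, 33391536 to 33409924, plus strand), a minus-end motor that gathers spindle poles, stood at 13.7, 14.1 and 14.5 FPKM against 20.3, 20.2 and 21.7 FPKM. In all 3 the groups were separate, with log2 fold changes of -0.43, -0.59 and -0.53. KIF11, known as Eg5, which pushes the spindle poles apart and is the target of antimitotic compounds, had a log2 fold change of -0.44 (22.6 ± 1.44 against 30.99 ± 1.21 FPKM). KIF2C, the centromeric depolymerase also called MCAK, had one of -0.38 (13.98 ± 1.46 against 18.4 ± 1.09 FPKM).

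The members that were not called were KIF15 and KIF22. KIF15, which can keep the spindle bipolar when KIF11 is inhibited, stood at 10.96, 9.58 and 10.3 FPKM in the knockdown and at 11.04, 10.07 and 10.01 FPKM in the control (limma adjusted p = 0.892). The groups overlapped, and TMEM42 on the same strand shares 3802 bases of its span. KIF22, a chromokinesin that pushes chromosome arms outward, stood at 22.98, 22.2 and 20.9 FPKM against 23.6, 22.5 and 24.5 FPKM, again with overlap (adjusted p = 0.156 by limma). With columns rescaled to equal sums both were called lower (-0.84 and -0.96, beside the median of -0.82 over all genes there). With quantile normalization they had values of 0.09 and 0.06 and were not called.

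**Figure D1:**
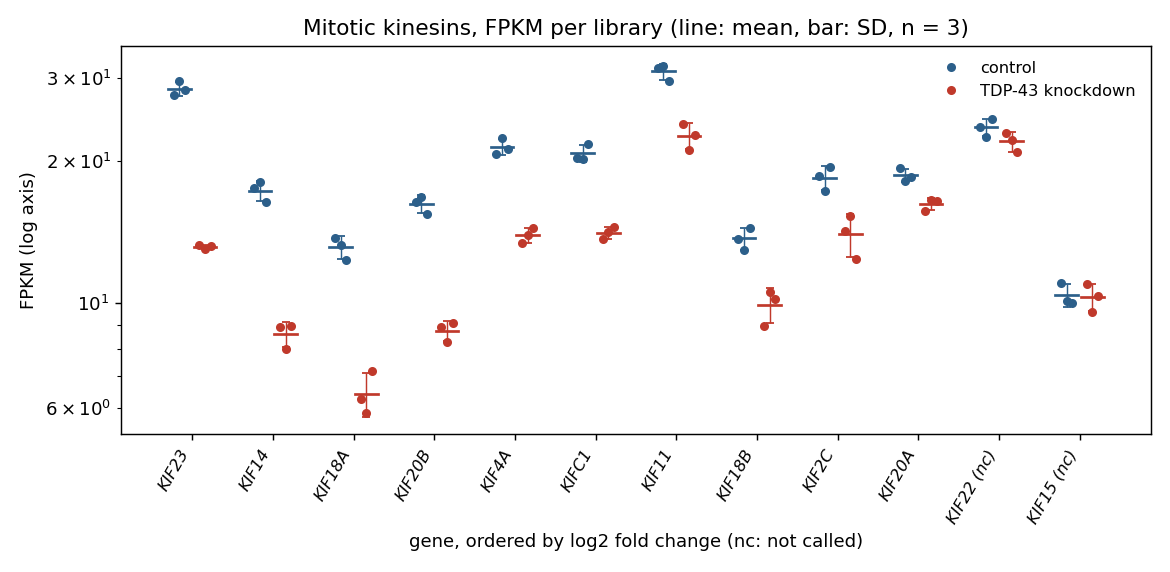
FPKM (log axis) of the 12 tested mitotic kinesins in the 3 control and 3 TDP-43 knockdown libraries, each point a library, each line a mean and each bar the SD, ordered by log2 fold change with nc for not called. Control libraries lie above all knockdown libraries for 10 genes on the deposited scale, and the groups overlap for KIF22 and KIF15.

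The groups did not overlap in 10 of the 12 tested mitotic kinesins, all with the knockdown below, where 38.2% of all tested genes lay wholly below. Genes listed as mitotic partners had similar counts. The list is wider than proteins that work with these motors. It also holds the transcription factors FOXM1 and MYBL2, the MuvB genes LIN9 and LIN54, TOP2A and MKI67. Of 29 mitotic partners, all tested, 27 were called lower and 0 higher, with a median log2 fold change of -0.55, and with quantile normalization 20 were called lower and 2 higher. The largest changes were in ANLN, a scaffold of the contractile ring (19.0 ± 1.73 against 63.5 ± 2.03 FPKM), ECT2, the activator of RhoA that centralspindlin recruits (20.6 ± 1.86 against 51.3 ± 0.647 FPKM), CDK1 (33.4 ± 5.18 against 71.3 ± 0.638 FPKM) and AURKA, a kinase of spindle poles (10.9 ± 0.870 against 23.6 ± 0.175 FPKM). ECT2 and ANLN act at the furrow that KIF23 organises, and RACGAP1, the other centralspindlin subunit, had a log2 fold change of -0.57. The partners that were not called were INCENP, of the chromosomal passenger complex (16.7 ± 1.58 against 17.9 ± 0.571 FPKM), and MKI67, the gene of the proliferation marker Ki-67 (49.3 ± 1.77 against 51.7 ± 0.878 FPKM). Quantile normalization turned INCENP to 0.03, not called, and MKI67 to 0.20, called higher. The other partner called higher there was CENPF, a kinetochore protein, at 0.12, which was called lower on the deposited scale (-0.14, 68.5 ± 1.61 against 75.5 ± 1.75 FPKM). CENPE, the kinetochore kinesin whose symbol falls outside the rule, stood at 9.67 ± 0.333 against 15.6 ± 0.590 FPKM and was called lower.

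Of the 42 kinesins, 34 had at least 1 promoter window in the RefSeq table. Those without were KIF13B, KIF21B, KIF5A, KIFC2, KIFC3, KIF19, KIF26B and KIF27. A form of the CHR was found in 14 of 15 windows of mitotic kinesins, in 2 of 17 windows of transport kinesins and in 1 of 11 windows of the others, where 25.1% of all 35116 windows of that length and 18.96% of the windows of tested genes hold one. The windows of KIF22 overlap and share 1 TTCGAA, which is counted in both. TTTGAA and CCAAT were searched on both strands, while TTCGAA and TTTAAA read the same on both. None of these contains another, but matches can share end bases, as a CCAAT box followed by TTTGAA can share a T. A window with both a CHR form and a CCAAT box was found for 11 of 14 mitotic kinesins, 1 of 12 transport kinesins with a window (KIF5B) and 1 of 8 others (KIF24), against 9.70% of all windows. The 11 include KIF4B, which was not tested and stayed far under the filter. Windows of mitotic kinesins had a median GC content of 62%, those of transport kinesins 71.3% and all windows 58.7%.

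The matches in mitotic kinesins lay near the start. Every one of the 12 tested had a CHR form within 100 bases of it, and 13 of their 14 CCAAT boxes did too. In KIF23 TTTGAA began 55 bases and an opposite-strand CCAAT 64 bases before the start, the sequence printed above. KIF18A had CCAAT at 45 and TTTGAA at 10 bases before it. Members that were not called held matches as well. KIF15 held an opposite-strand TTTGAA 35 bases before its start, with no CCAAT in its window, and KIF22 held TTCGAA with a CCAAT box in 1 of its 2 windows. KIF2C, which fell, held TTTAAA and no CCAAT. KIF5B, the transport kinesin with both, had TTTGAA farther out, 140 bases before the start. Over all tested genes 8.57% of windows of genes called lower, 6.97% of those called higher and 6.75% of those not called held both elements. A match is a run of letters and not a shown site of binding.

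**Figure D2:**
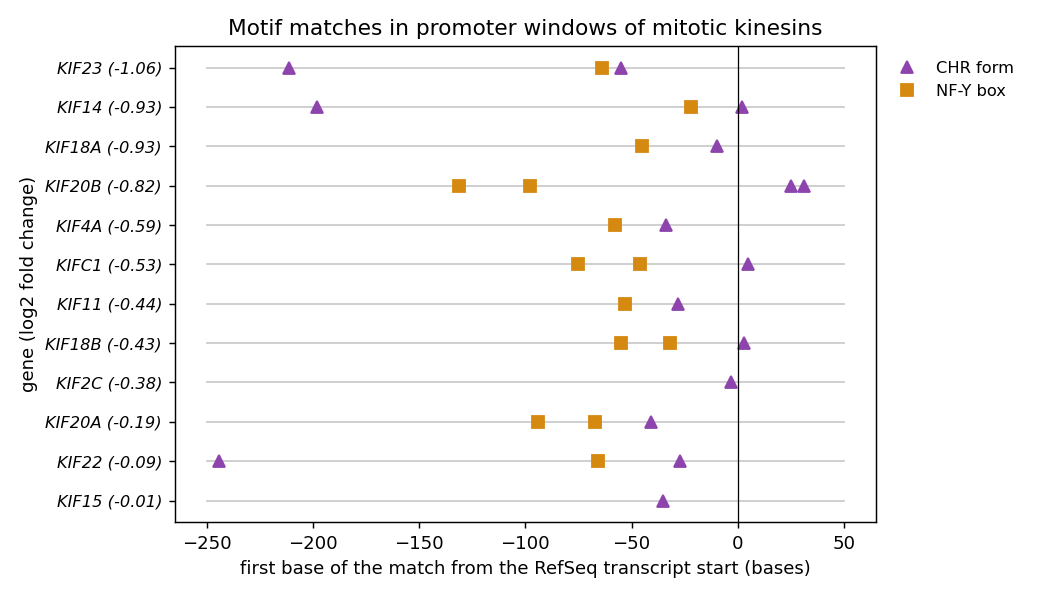
Position of the first base of each match (bases from the RefSeq transcript start, windows drawn as grey lines) in the 12 tested mitotic kinesins, with triangles for a CHR form and squares for the box bound by NF-Y, genes ordered by log2 fold change. Both windows of KIF22 are drawn on 1 line. They overlap, and its triangles are 1 TTCGAA measured from either start. Each of the 12 genes has a triangle within 100 bases of the start.

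Transport kinesins were called in both directions. Of 17, 16 were tested, and 7 were called lower, 6 higher and 3 in neither direction, shares of 43.8% and 37.5% beside 35.9% and 30.5% of all tested genes. Their median log2 fold change was -0.09. The knockdown lay wholly above the control in 6 and wholly below in 8, where 32.5% and 38.2% of tested genes did. On the log2(FPKM + 1) scale KIFC3 was the 1 member called lower by 2-fold or more and KIF1A the 1 called higher by that much, beside 7.95% and 3.31% of tested genes. Their summed level was 293, 280 and 294 FPKM in the knockdown libraries and 296, 296 and 292 FPKM in the controls, a mean of 0.980 times the control. KIF17, a motor of dendrites and cilia, did not reach the filter, with 0.524 ± 0.0442 against 0.626 ± 0.0398 FPKM.

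The largest rise of any tested kinesin was that of KIF1A (chromosome 2, 240713761 to 240821036, minus strand), which carries synaptic vesicle precursors and dense-core vesicles down axons. It stood at 14.9, 16.6 and 15.2 FPKM in the knockdown and at 5.99, 5.52 and 6.26 FPKM in the control. Every knockdown library was more than 2 times any control library (log2 fold change 1.26, standard error 0.066, limma adjusted p = 5.04e-07). With columns rescaled to equal sums the value was 0.45, and no other transport kinesin was called higher. KIF1C (chromosome 17, 4997948 to 5028401, plus strand), a relative found in most tissues that moves integrins and other vesicle cargo, went the other way, at 6.47, 6.48 and 5.77 FPKM against 11.7, 11.1 and 12.2 FPKM (log2 fold change -0.80, standard error 0.067). KIF1B, a carrier of mitochondria and synaptic vesicle precursors and a candidate neuroblastoma tumour suppressor, stood at 29.9, 26.7 and 28.5 FPKM against 25.4, 26.1 and 25.2 FPKM. Its groups were close and its call (log2 fold change 0.14, adjusted p = 0.037 by limma) was lost when any library but knockdown library 2 was left out (0.11 to 0.16). It turned to -0.73 with columns rescaled to equal sums. Within the KIF1 genes of a library KIF1A made up 29.1%, 33.3% and 30.7% of the summed FPKM in the knockdown and 13.9%, 12.9% and 14.3% in the control, and KIF1C 12.6%, 13.03% and 11.6% against 27.1%, 25.9% and 27.9%. For either share p = 0.1 by exact permutation (two-sided), and 3 libraries a group allow nothing smaller. The share of KIF1B overlapped between groups, at 58.3%, 53.7% and 57.6% against 59.0%, 61.2% and 57.8% (p = 0.2 by exact permutation). Shares of genes in 1 library are tied to each other, and these KIF1 shares were not planned.

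Of the kinesin-1 heavy chains, KIF5B fell and KIF5C and KIF5A rose on the deposited scale. With columns rescaled to equal sums the rises turned to -0.35 and -0.63, beside a median of -0.82 over all tested genes. KIF5B (chromosome 10, 32009010 to 32056431, minus strand), the form made in all cells, stood at 58.0, 53.6 and 60.7 FPKM in the knockdown and at 83.5, 85.2 and 82.0 FPKM in the control. It was 0.688 times the control level, with no overlap (log2 fold change -0.53, standard error 0.05, limma adjusted p = 2.18e-05). KIF5C (chromosome 2, 148875250 to 149026759, plus strand), a neuronal form, stood at 22.0, 20.9 and 22.1 FPKM against 14.6, 15.4 and 14.8 FPKM. The groups were well apart (log2 fold change 0.51, standard error 0.049). KIF5A (chromosome 12, 57549998 to 57586632, plus strand), the neuronal form mutated in ALS, stood at 9.65, 10.3 and 9.07 FPKM against 8.36, 8.12 and 8.73 FPKM, a small difference of 0.18 on the log2 scale (adjusted p = 0.0326 by limma). Its libraries were separate, but the call was lost without knockdown library 1 or 2 or control library 1 or 2, with values from 0.14 to 0.18. Shares within a library do not depend on a single scaling factor per library, though quantile normalization, which is no such factor, can change them. KIF5B made up 64.7%, 63.2% and 66.1% of the kinesin-1 heavy chain FPKM in the knockdown and 78.4%, 78.3% and 77.7% in the control, KIF5C 24.5%, 24.7% and 24.02% against 13.7%, 14.2% and 14.02%, and KIF5A 10.8%, 12.1% and 9.88% against 7.85%, 7.47% and 8.27%. None of the 3 shares overlapped between groups, and for each p = 0.1 by the same exact permutation test.

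Light chains, which couple kinesin-1 to cargo and hold it inactive when it has none, had a lower sum in the knockdown. KLC1 stood at 40.3 ± 0.862 against 50.4 ± 2.39 FPKM and KLC2 at 12.6 ± 1.23 against 22.2 ± 1.07 FPKM, both called lower, though KLC1 was not called with quantile normalization (-0.06). KLC4 stood at 5.62 ± 0.206 against 3.96 ± 0.342 FPKM and was called higher, a log2 fold change of 0.42 that turned to -0.33 with columns rescaled to equal sums. KLC3 did not reach the filter. The 4 light chains summed to 58.7 ± 1.75 FPKM in the knockdown and 76.95 ± 1.52 FPKM in the control, and the 3 heavy chains to 88.8 ± 3.59 and 106.9 ± 1.62 FPKM.

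KIF21A (chromosome 12, 39293228 to 39443390, minus strand), which restrains microtubule growth at the cell edge and is mutated in an inherited disorder of eye movement, stood at 71.3, 64.7 and 70.2 FPKM in the knockdown and at 41.3, 42.2 and 39.3 FPKM in the control. The knockdown held 1.68 times the control level (log2 fold change 0.73, standard error 0.05, limma adjusted p = 2.82e-06). On equal column sums the value was -0.15, beside a median of -0.82 over all tested genes. KIF21A took over the first rank among all 42 kinesins from KIF5B. It stood at 1.23, 1.21 and 1.16 times KIF5B in the knockdown libraries and 0.495, 0.495 and 0.479 times in the controls. Its relative KIF21B, a neuronal motor, was low and not called (1.247 ± 0.128 against 1.41 ± 0.215 FPKM).

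The minus-end motors KIFC2 and KIFC3 also changed places. KIFC3 (chromosome 16, 57758217 to 57863053, minus strand), which serves the Golgi and the junctions of epithelial cells, had the deepest fall of any tested kinesin, with 2.2003, 2.52 and 2.83 FPKM in the knockdown and 10.5, 10.2 and 10.5 FPKM in the control. It was left at 0.242 times the control level (log2 fold change -1.70, standard error 0.079, limma adjusted p = 2.24e-07). KIFC2 (chromosome 8, 144466043 to 144474202, plus strand), a motor of neurons, stood at 5.27, 6.52 and 6.13 FPKM against 3.47, 3.68 and 4.62 FPKM. The nearest libraries of the groups were close (log2 fold change 0.51, standard error 0.11, and -0.24 with columns rescaled to equal sums), and KIFC2 overlaps FOXH1 on the opposite strand by 791 bases. KIFC2 stood at 2.39, 2.59 and 2.16 times KIFC3 in the knockdown libraries and at 0.330, 0.360 and 0.440 times in the controls. This ratio, like that of KIF21A to KIF5B, was picked after its values were seen, and for each p = 0.1 by exact permutation, again the smallest possible.

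Kinesin-2, the motor of cilia and of several axonal cargoes, varied less. KIF3B and KIF3C were called lower, with log2 fold changes of -0.25 and -0.31, and their calls were lost with quantile normalization (-0.12 each). KIF3A, their shared partner, was not called (11.1 ± 1.03 against 11.6 ± 0.492 FPKM), nor was the accessory subunit KIFAP3 (20.6 ± 1.86 against 22.0 ± 0.614 FPKM), and quantile normalization turned both to values above 0 (0.04 and 0.05) without a call. KIF13A and KIF13B, vesicle motors of the kinesin-3 family, fell. KIF13B (chromosome 8, 29067279 to 29263124, minus strand) stood at 4.01, 3.93 and 4.401 FPKM in the knockdown and 6.44, 6.48 and 5.90 FPKM in the control (log2 fold change -0.51), and KIF13A had a log2 fold change of -0.47. KIF16B, a motor of early endosomes, was not called although its 3 knockdown libraries lay below its 3 control libraries (4.77 ± 0.104 against 5.13 ± 0.246 FPKM).

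**Figure D3:**
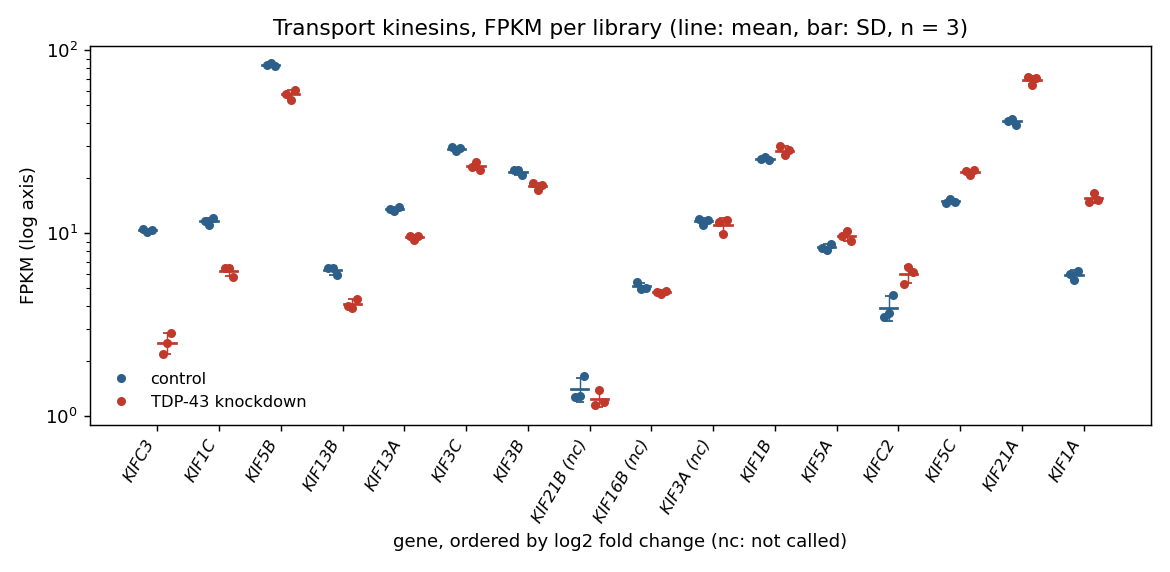
FPKM (log axis) of the 16 tested transport kinesins in the 3 control and 3 TDP-43 knockdown libraries, each point a library, each line a mean and each bar the SD, ordered by log2 fold change with nc for not called. The knockdown libraries run from 0.242 times the control in KIFC3 to 2.63 times in KIF1A on the deposited scale. With columns rescaled to equal sums the rises other than that of KIF1A turn negative, beside a median of -0.82 over all tested genes.

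**Figure D4:**
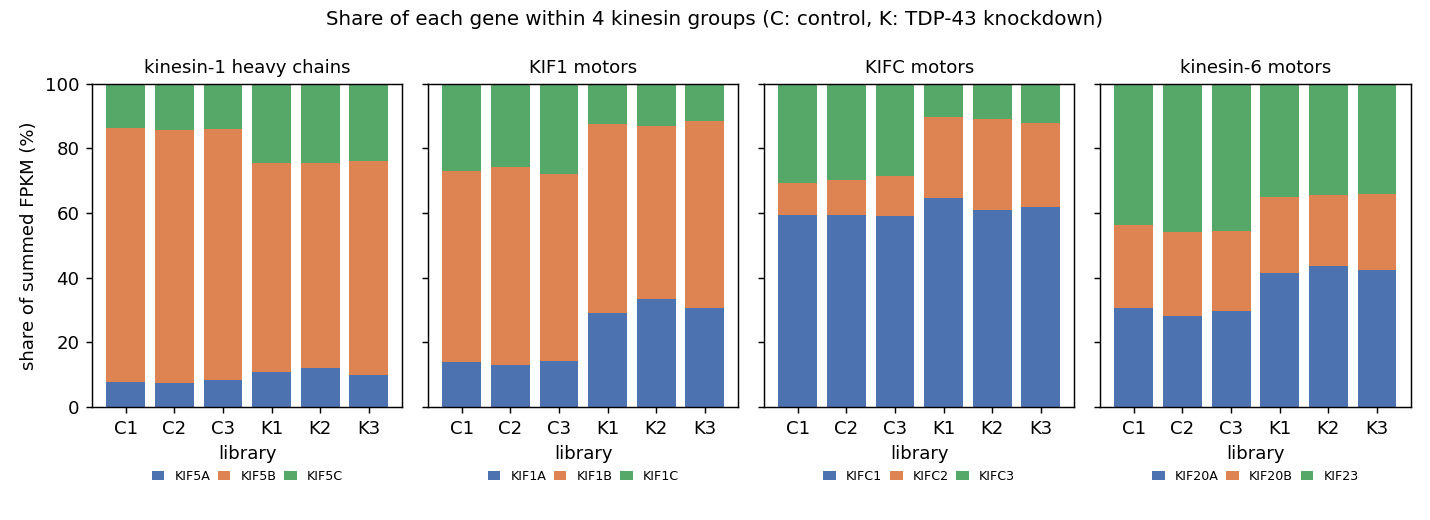
Share of each gene in the summed FPKM of 4 groups of kinesins (percent, stacked bars from 0 to 100) in control libraries C1 to C3 and knockdown libraries K1 to K3. KIF5C, KIF1A, KIFC2 and KIF20A take larger shares in every knockdown library than in any control library, and KIF5B, KIF1C, KIFC3 and KIF23 smaller ones. Other groups are not drawn. In those, the shares of KIF3B, KIF3C, KIF13A and KIF13B overlap between knockdown and control. The shares of KIF3A, KIF18A, KIF18B, KIF21A and KIF21B do not.

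The median log2(FPKM + 1) of the tested mitotic kinesins was above that of the tested transport kinesins by 0.31, 0.38 and 0.23 in the knockdown libraries and by 0.64, 0.66 and 0.62 in the controls. The difference between the groups was -0.33, and no knockdown library reached a control library. By summed FPKM, mitotic motors made up 29.7%, 30.1% and 29.7% of all kinesin FPKM in the knockdown and 38.0% in each control library, and transport motors 54.1%, 53.1% and 54.5% against 48.1%, 48.2% and 47.9%. Whether the 2 classes differ beyond the choice of members was not tested. The 12 tested mitotic kinesins ran from -1.06 to -0.01, with KIF15 and KIF22 turning to 0.09 and 0.06 under quantile normalization, and the 16 transport kinesins ran from -1.70 to 1.26.

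**Figure D5:**
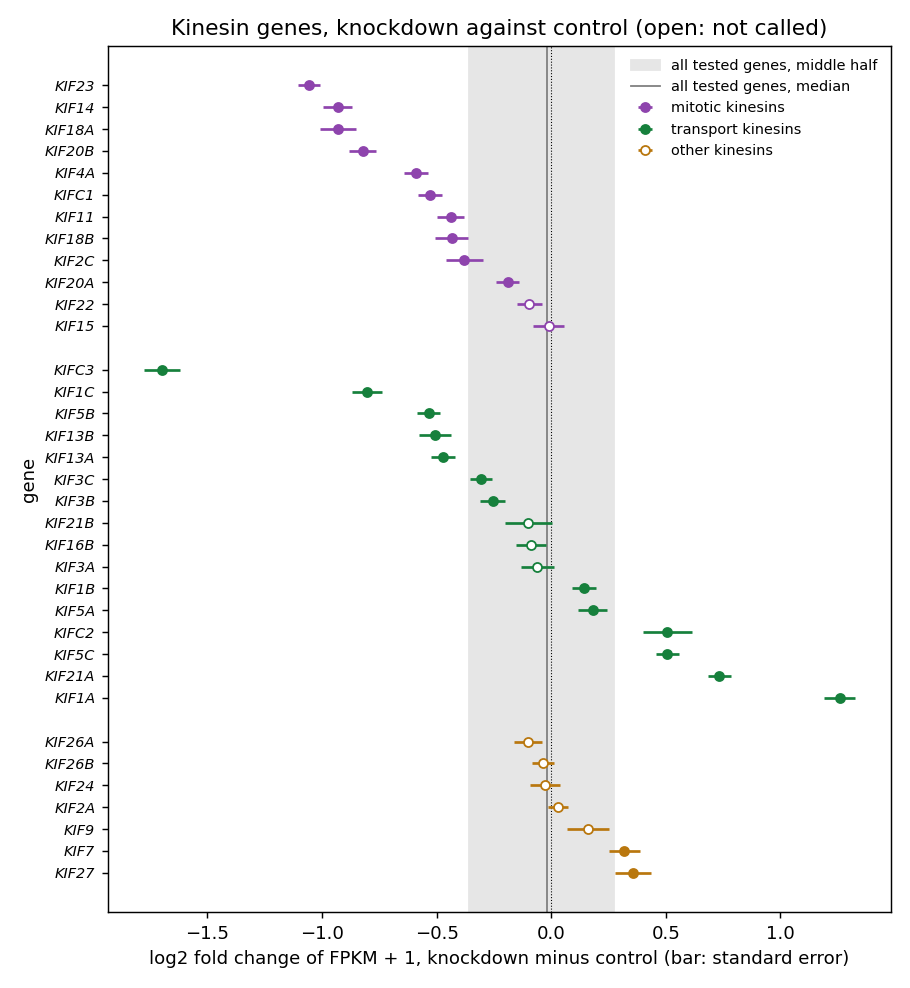
Log2 fold change of FPKM + 1 (knockdown minus control, bars the standard error from limma, n = 3 libraries a group) for the 35 tested kinesins by class, filled where called and open where not, with the median of all tested genes as a line and the range of their middle 50% in grey. Mitotic kinesins run from -1.06 to -0.01 and transport kinesins from -1.70 to 1.26. Equal column sums turn every rise but that of KIF1A negative, beside a median of -0.82 over all tested genes. Quantile normalization turns KIF15, KIF22, KIF3A and KIF26B positive.

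Of the 11 other kinesins 7 were tested, with 2 called higher and 0 lower. These are shares of 28.6% and 0%, beside 30.5% and 35.9% of all tested genes. KIF27 (chromosome 9, 83836698 to 83921465, minus strand), a motor protein of motile cilia, stood at 3.62, 3.54 and 3.57 FPKM in the knockdown and at 2.32, 2.70 and 2.72 FPKM in the control. KIF7 (chromosome 15, 89608789 to 89655451, minus strand), which organises the tip of the primary cilium for Hedgehog signalling, stood at 4.399, 4.66 and 4.46 FPKM against 3.32, 3.40 and 3.52 FPKM, and its span overlaps TICRR on the opposite strand by 22268 bases. Both were separate between groups, with log2 fold changes of 0.36 and 0.32. They turned to -0.33 and -0.40 with columns rescaled to equal sums, beside a median of -0.82 over all tested genes. With the uncalled KIF9, 3 of the 7 had the knockdown wholly above the control and 0 wholly below. Among all tested genes 32.5% and 38.2% did. The 5 that were not called were KIF2A, KIF9, KIF24, KIF26A and KIF26B. KIF2A, a depolymerase used both at spindle poles and in pruning axon branches, stood at 33.9 ± 1.05 against 33.3 ± 0.665 FPKM, with IPO11 on the same strand and DIMT1 on the other overlapping its span, and KIF24, a depolymerase of the centriole, at 3.70 ± 0.131 against 3.79 ± 0.0540 FPKM. KIF26B, an atypical kinesin of cell adhesion, was among the more abundant ones at 28.9 ± 1.249 against 29.7 ± 0.601 FPKM. KIF9, a motor of the sperm tail and motile cilia, stood at 1.65 ± 0.208 against 1.37 ± 0.0835 FPKM and KIF26A, a relative of KIF26B, at 10.3 ± 0.418 against 11.1 ± 0.689 FPKM. Equal column sums turned KIF2A to -0.85 and KIF9 to -0.39, and quantile normalization turned KIF26B to 0.17, called higher. KIF6, KIF12, KIF19 and KIF25 did not reach the filter. KIF6, a cilia motor, had 0.351 ± 0.0559 against 0.126 ± 0.0164 FPKM.

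Adaptors link kinesins to cargo. Of 30, 27 were tested, 10 were called higher and 11 lower (37.0% and 40.7%, near the 30.5% and 35.9% of all tested genes), and the median log2 fold change was 0.01. With quantile normalization 14 were called higher and 7 lower, and with columns rescaled to equal sums 3 and 23. The largest changes were in SYBU, syntabulin, which links kinesin-1 to syntaxin vesicles (14.1 ± 0.716 against 1.44 ± 0.0170 FPKM), MAPK8IP2, the scaffold JIP2 (7.31 ± 1.09 against 1.99 ± 0.258 FPKM), and MAP7, which recruits kinesin-1 to microtubules (14.4 ± 0.382 against 4.57 ± 0.0729 FPKM), followed by KLC2 given above. The gene of the kinesin binding protein, KIAA1279, which holds several kinesins off microtubules, had a log2 fold change of -0.77 (8.85 ± 0.948 against 15.7 ± 0.299 FPKM). It is named beside the 4 largest because its change was nearly that of KLC2.

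Dynein with dynactin is the motor of the opposite direction. Of 27 genes 26 were tested, 14 were called lower and 7 higher (53.8% and 26.9%, beside 35.9% and 30.5% of all tested genes), and the median log2 fold change was -0.19. That balance turned with quantile normalization, which called 10 lower and 11 higher with a median of 0.07, while equal column sums gave 25 lower and 1 higher. The heavy chain DYNC1H1 was not called (63.3 ± 1.64 against 67.7 ± 0.920 FPKM), but was called higher with quantile normalization (0.17). The light chain DYNLT3 had the largest change, 4.56 ± 0.817 against 22.0 ± 0.513 FPKM, followed by the adaptor HOOK1 at 3.94 ± 0.202 against 0.847 ± 0.126 FPKM. DYNLT1 and NDEL1, a dynein regulator, had log2 fold changes of -0.99 and -0.67.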

How the data were processed

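Poly(A) RNA of 6 SH-SY5Y libraries, 3 with a TDP-43 shRNA and 3 with a control shRNA, was sequenced. The deposited table holds FPKM per gene and library as the authors computed it. The submitters' processing notes name hg38, Cuffdiff 2.2.1, TopHat2 2.1.0 and SAMtools. The annotation is not given in the sources used here, nor is the strand setting, and overlapping or near-identical genes cannot be resolved. Read depth is unknown. Relative depth was taken as the most frequent ratio between libraries among values up to 0.3 FPKM.

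The 13434 of 26372 genes that averaged at least 1 FPKM were tested on log2(FPKM + 1). Fold changes are on that scale, and those of low genes are understated. The test was limma 3.58.1 (R 4.3.3) with an intensity trend, two-sided, with Benjamini-Hochberg adjustment over all of them. It was also run on simulated data with independent values, few changed genes and no shift between columns. Such data cannot show how it performs under the broad change and uncertain scaling seen here. Columns were assigned to groups by title. The members, lists and tests were chosen with earlier results of these data known. Genes were named by rule: values per library for at most 6 called members of a class by size of change and for the KIF5 genes, every member not called, and at most 4 called genes of each partner list. Library values of KIF13B, KIF15, KIF1B, KIF22 and KIFC2, the ratios between genes and some further partners were added after their values were seen. Shares other than those of the kinesin-1 heavy chains were not planned. Positions are from GENCODE 29 (GRCh38), promoter windows from RefSeq. Alternatives were other pseudocounts, filters, scalings, limma settings, a replicate block and leaving out each library. A rescaling without 6 small RNAs was added after seeing the data. Python 3.11.15 and matplotlib 3.10.9 were used.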

Additional observations from a re-analysis of the deposited data

How the results depend on the processing

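The 10 mitotic kinesins called lower stayed between 9 (quantile normalization) and 12 (columns rescaled to equal sums) under every alternative run, and none was called higher. Equal column sums changed the most, because 6 small RNAs hold 79.7% to 82.0% of knockdown sums and 63.8% to 64.9% of control sums. Then 11689 genes were lower and 522 higher, 14 transport kinesins were lower and 1 higher, the mitotic and transport medians were -1.35 and -0.87, and KIF21A (-0.15), KIFC2 (-0.24), KIF27 (-0.33), KIF5C (-0.35), KIF9 (-0.39), KIF7 (-0.40), KIF5A (-0.63), KIF1B (-0.73) and KIF2A (-0.85) turned negative. Rescaled without those 6 RNAs, an alternative added after seeing the data, 33 of 35 kinesins kept their side of the threshold, KIF1B and KIF5A being lost. With quantile normalization the mitotic median was -0.37, KIF26B turned to 0.17 and was called, and KIF2A was called higher. Filters moved the medians: with no filter the mitotic median was -0.44, with a minimum mean of 5 FPKM the transport median was -0.25, and the difference between classes was -0.65 at 5 FPKM and -0.26 at 0.1 FPKM, since members drop out or enter. Leaving out each library in turn gave differences between classes of -0.37 to -0.29.

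Same-numbered libraries did not deviate together (correlations -0.02, -0.18 and -0.09), and no pairing by number was seen. With 3 libraries a group the check is too small to show a weak pairing. With a replicate block 8561 genes were called against 8909 and 4 transport kinesins were higher against 6, KIF1B and KIF5A being lost. No library correlated best with its own number. Low kinesins are limited by the unknown depth.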
